A study of Mus musculus with 30 samples.

Results

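The interferon regulatory factors (IRFs) were followed in cultured mouse tumor cells through 8 genes, Irf1, Irf2, Irf3, Irf4, Irf5, Irf7, Irf8 and Irf9. They were chosen by symbol from the 49315 genes counted. All 8 were among the 21138 genes that reached the minimum of 10 reads over the 24 bulk RNA-seq libraries. The libraries came from B16F10 melanoma cells and from 6694c2 cells, a pancreatic ductal adenocarcinoma (PDAC) line, both labelled C57BL/6, with 3 libraries in each of 8 groups. Treatments lasted 24 h in culture and were vehicle (named so in the sample titles), 100 ng/mL IFNγ, 1000 U/mL IFNβ or 225 µg/mL STING agonist. Each tumor type was represented by a single line, and the labels do not say whether the 3 libraries of a group came from separate cultures, so p-values measure only the spread between these libraries.

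IRFs are transcription factors that share a DNA-binding domain reading GAAA repeats, the core of the interferon-stimulated response element (ISRE). Type I interferons such as IFNβ signal through ISGF3, a complex that holds STAT2 and IRF9 and binds the ISRE. IFNγ acts mainly through the gamma-activated site (GAS), and IRF1 is a classical product of that route. IRF3 and IRF7 are switched on by phosphorylation below STING, RIG-I-like and Toll-like receptors and drive the interferon genes themselves, IRF2 is known mainly as an antagonist of IRF1, IRF5 acts in inflammatory signaling, and IRF4 and IRF8 are best known from lymphoid and myeloid cells. Transcript levels say nothing of phosphorylation.

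The sequences upstream of the start sites were read for the letters of the GAS and ISRE cores, because Irf1, Irf2 and Irf8 were among the genes raised by IFNγ, and Irf7 by IFNβ. The promoter sequences are those of RefSeq on GRCm38.p6, all given on the strand of the gene, and windows of 250 bases before and 50 after each start were searched on both strands. Letters searched were TTCNNNGAA for GAS, which reads the same on either strand, and GAAANNGAAA for ISRE. Capitals mark a match in the 250 upstream bases of Irf1 (chr11:53769764-53770013, plus strand), Irf8 (chr8:120736108-120736357, plus strand), Irf2 (chr8:46739495-46739744, plus strand) and Irf7 (chr7:141266425-141266674, minus strand).
Irf1: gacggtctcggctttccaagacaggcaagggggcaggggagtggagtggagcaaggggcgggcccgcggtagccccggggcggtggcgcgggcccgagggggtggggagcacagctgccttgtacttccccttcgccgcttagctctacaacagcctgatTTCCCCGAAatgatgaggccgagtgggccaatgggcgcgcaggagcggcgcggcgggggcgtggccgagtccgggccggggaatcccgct
Irf8: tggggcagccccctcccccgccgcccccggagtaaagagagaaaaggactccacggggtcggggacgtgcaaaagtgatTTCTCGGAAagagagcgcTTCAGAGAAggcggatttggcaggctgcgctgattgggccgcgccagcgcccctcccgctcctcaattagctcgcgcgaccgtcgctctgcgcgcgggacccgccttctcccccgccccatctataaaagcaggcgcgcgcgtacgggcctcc
Irf2: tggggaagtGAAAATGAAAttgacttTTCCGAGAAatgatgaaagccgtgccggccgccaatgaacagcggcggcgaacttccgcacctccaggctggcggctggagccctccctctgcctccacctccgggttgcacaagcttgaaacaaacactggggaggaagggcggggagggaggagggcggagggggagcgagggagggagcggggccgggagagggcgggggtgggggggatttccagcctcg
Irf7: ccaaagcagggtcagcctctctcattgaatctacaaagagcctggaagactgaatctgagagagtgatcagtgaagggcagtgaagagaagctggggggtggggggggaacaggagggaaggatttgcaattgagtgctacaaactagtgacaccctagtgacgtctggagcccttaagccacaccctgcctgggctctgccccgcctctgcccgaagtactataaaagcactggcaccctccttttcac

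The Irf1 window held 1 GAS core, from -90 to -82 relative to the start site. The Irf8 window held 2, from -171 to -163 and from -153 to -145. The Irf2 window held an ISRE core from -241 to -232 and a GAS core from -224 to -216. Neither set of letters was found in the windows of Irf3, Irf4, Irf5, Irf7 or Irf9, nor at the second annotated starts of Irf1, Irf8 and Irf9. Both Irf9 windows, from 55603735 and 55604329 on chr14, began inside the counted span of that gene, which begins at 55603571. Bases upstream of that span were not searched. Over 32851 mouse promoter windows of the same length, 8.3% held the GAS core and 3.44% the ISRE core. A match is a string of letters, and binding was not measured.

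Library depth on genes ran from 15543131 to 32266795 reads, and replicates of a group correlated at 0.994 to 0.998 across genes on the log2 scale. Levels are given as CPM, read counts scaled to library size with TMM factors. The 7 melanocyte markers (such as Tyr, Dct and Pmel) summed in the 12 6694c2 libraries to 0.10 to 0.699% of their mean B16F10 vehicle sum. The 7 ductal epithelial markers summed in the 12 B16F10 libraries to 0.0936 to 0.869% of their mean 6694c2 vehicle sum. That vehicle sum was mostly Krt8 (7584 CPM) and Krt19 (2541 CPM). Epcam (3.52 CPM), Ehf (0.404 CPM) and Cldn4 (0.258 CPM) were low in 6694c2 vehicle cells. Of these 7 markers, 5 were called higher and 0 lower in 6694c2 than in B16F10 vehicle cells, against 28.7% and 29.3% of all genes. Of 11 leukocyte markers, the 9 that reached the read minimum summed to 5.50 to 23.7 CPM, and the others, Cd3e and Itgam, had at most 1 and 2 reads in any library. In bulk libraries, fewer cells that express a gene and less RNA per cell cannot be told apart.

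**Figure D1:**
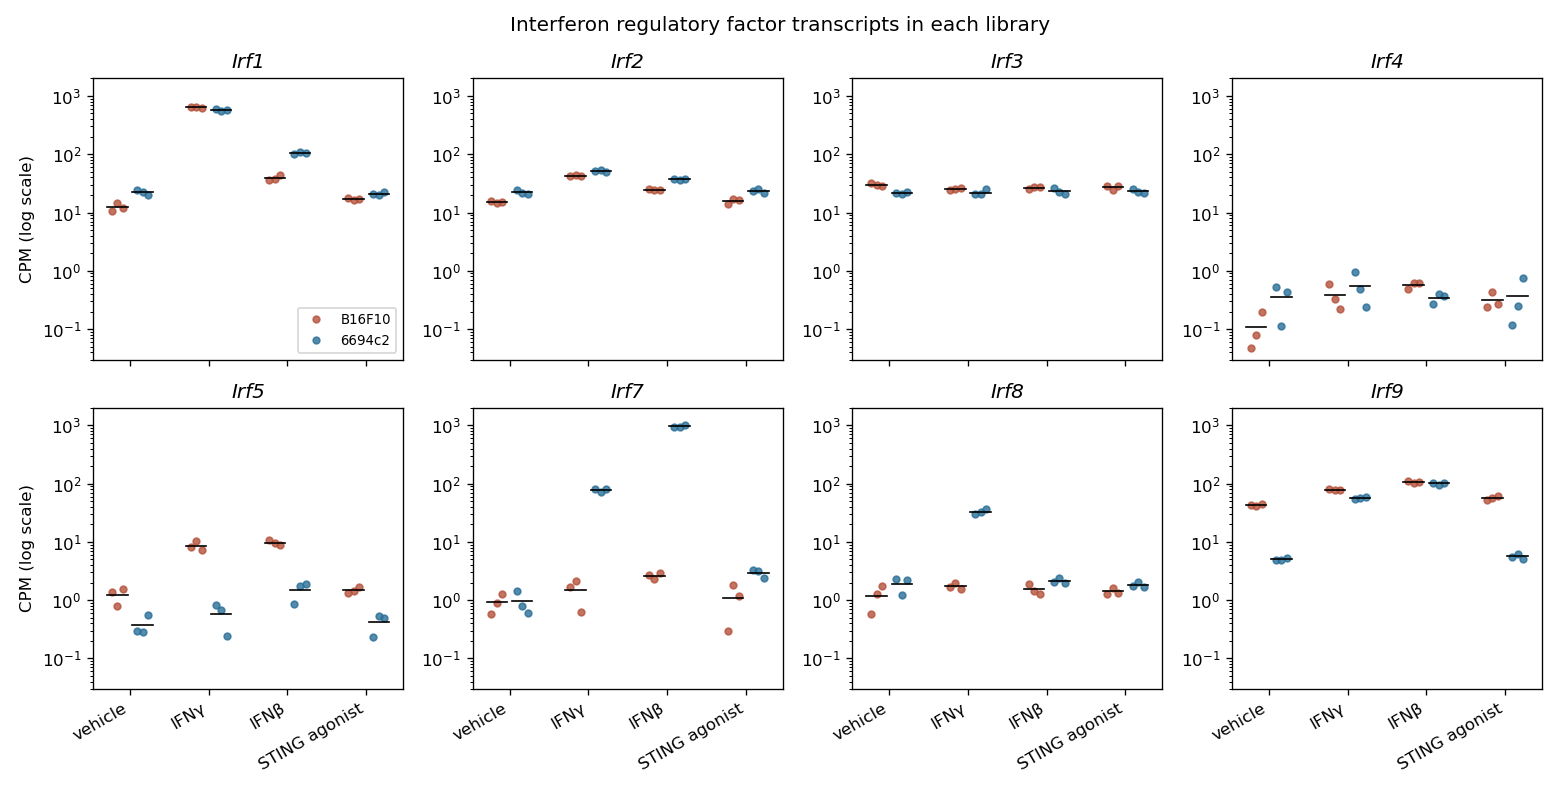
Levels of the 8 factors in each library, in CPM on a log axis, by treatment, with B16F10 and 6694c2 as separate colors; points are libraries and black bars are means of 3. Irf7 spans from under 1 CPM to 1029 CPM in 6694c2 cells and stays under 3 CPM in B16F10 cells, whereas Irf3 stays between 20.4 and 32.3 CPM in every library.

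Each interferon raised between 4 and 6 of the 8 factors in each line. In B16F10 cells with IFNγ, 4 of 8 members rose (Irf1, Irf2, Irf5, Irf9) and Irf3 fell, with 12% of all tested genes called higher and 10.8% lower. The median log2 fold change of the members was 1.2, against 0 over all genes tested. With IFNβ, 6 of 8 rose (Irf1, Irf2, Irf4, Irf5, Irf7, Irf9) and none fell, against 12.7% of all genes higher and 11.2% lower, with a member median of 1.40. In 6694c2 cells, 5 of 8 rose with IFNγ (Irf1, Irf2, Irf7, Irf8, Irf9), against 7.89% of all genes higher and 5.66% lower, and 5 of 8 with IFNβ (Irf1, Irf2, Irf5, Irf7, Irf9), against 10.4% higher and 7.86% lower, with none of the 8 lower in either. Of the IFNβ calls over all genes, 56.8% were higher, and 42.3% with library totals in place of TMM factors. The median log2 fold change of the 8 members in 6694c2 cells was 2.35 with IFNγ and 1.40 with IFNβ. STING agonist raised Irf1 and Irf9 in B16F10 cells, where 1.93% of all genes were higher and 1.53% lower (55.7% of calls higher, and 70.8% with library totals), and Irf7 in 6694c2 cells, where 0.203% were higher and 0.156% lower. All treatments of a line were compared with the same 3 vehicle libraries. At their trace levels, the markers of the other line moved with treatment too. In B16F10 cells 2 of the 7 ductal epithelial markers were higher with IFNγ, 5 with IFNβ and 4 with STING agonist, and in 6694c2 cells 6 of the 7 melanocyte markers were lower with IFNβ and 5 with STING agonist. Their part in the responses of the 8 factors was not tested.

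**Figure D2:**
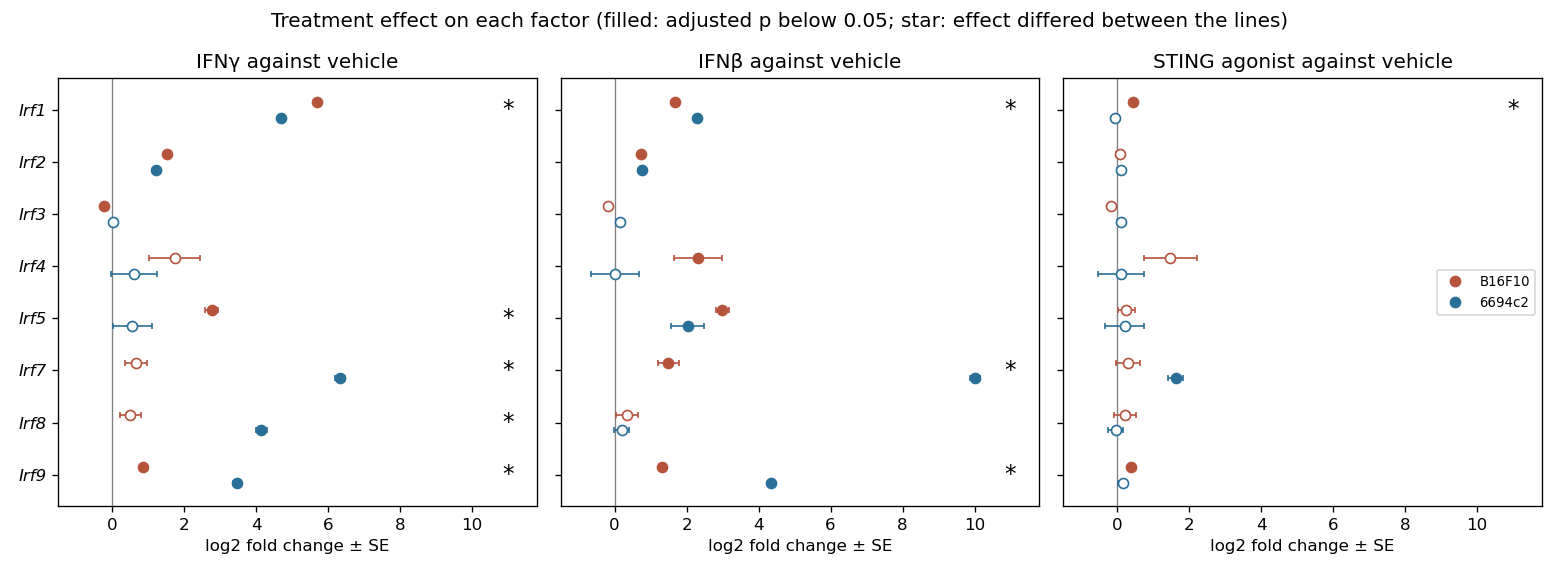
Log2 fold change of each factor against vehicle of the same line, with its standard error, for IFNγ, IFNβ and STING agonist; filled points passed an adjusted p of 0.05 and stars mark effects that differed between the lines. Irf7 with IFNβ lies at 1.49 in B16F10 cells and at 10.01 in 6694c2 cells.

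Irf1 (ENSMUSG00000018899, chr11:53770014-53778374), the activator of MHC class I, immunoproteasome and guanylate-binding protein genes, carried the largest response to IFNγ of the 8 in B16F10 cells. Its levels were 10.5, 14.4 and 11.9 CPM with vehicle and 643, 651 and 618 CPM with IFNγ. With IFNβ they were 36.4, 37.6 and 43.9 CPM, and with STING agonist 17.5, 16.2 and 17 CPM. Each treated group lay above vehicle without overlap, and IFNγ stood far above the others. The log2 fold changes were 5.69 ± 0.0727 (SE, adjusted p = 1.7e-244), 1.68 ± 0.0734 (adjusted p = 5.4e-73) and 0.44 ± 0.0824 (adjusted p = 1.6e-05). In 6694c2 cells Irf1 began higher, at 24.0, 22.2 and 20.4 CPM, and reached 592, 559 and 568 CPM with IFNγ and 101, 110 and 106 CPM with IFNβ, for log2 fold changes of 4.70 ± 0.0812 and 2.28 ± 0.0768. With STING agonist it lay at 20.7, 20.0 and 22.5 CPM, overlapping vehicle, with a log2 difference of -0.07 (95% interval -0.23 to 0.08).

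The Irf1 response differed between the lines in opposite directions for the 2 interferons. Tested as a difference of effects over all 24 libraries (coded as 6694c2 minus B16F10), the IFNγ effect was smaller in 6694c2 cells by a log2 difference of -1.0 ± 0.114 (adjusted p = 1.8e-08), while the IFNβ effect was larger by 0.57 ± 0.118 (adjusted p = 0.00057). Levels with IFNγ were close, 637 ± 17.3 CPM in B16F10 and 573 ± 17.3 CPM in 6694c2 cells (SD, n = 3), and the vehicle levels differed in the other direction. The STING agonist effect differed by -0.53 ± 0.127 (adjusted p = 0.013), a call lost without B16F10 vehicle replicate 1 (-0.42, adjusted p = 0.089), B16F10 vehicle replicate 3 (adjusted p = 0.051) or B16F10 STING agonist replicate 1 (adjusted p = 0.054).

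Irf2 (ENSMUSG00000031627, chr8:46739732-46847458), whose product competes with IRF1 for the same sites, rose with both interferons by smaller steps. It measured 15.7, 14.3 and 15.1 CPM in B16F10 cells with vehicle, 43.1, 43.8 and 42.5 with IFNγ, and 25.7, 24.0 and 24.5 with IFNβ. In 6694c2 cells it measured 24.5, 22 and 20.4 CPM with vehicle, 50.8, 54.6 and 49.9 with IFNγ, and 37.9, 36.1 and 37 with IFNβ. The groups did not overlap in either line, and IFNγ gave the higher level in both. The log2 fold changes were 1.52 and 0.73 in B16F10 cells and 1.23 and 0.77 in 6694c2 cells. A difference between the lines was not called for IFNγ (-0.31, 95% interval -0.54 to -0.08, adjusted p = 0.094) or IFNβ (0.01, interval -0.22 to 0.24). With STING agonist Irf2 overlapped vehicle in both lines, with log2 differences of 0.07 and 0.09.

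Per kilobase of counted length, Irf1 stood at 1.53 ± 0.322 times Irf2 in B16F10 vehicle cells and at 27.5 ± 0.364 times with IFNγ (SD, n = 3). In 6694c2 cells this ratio went from 1.85 ± 0.0227 to 20.6 ± 1.40. With IFNβ it was 2.96 ± 0.349 in B16F10 and 5.31 ± 0.365 in 6694c2 cells. The range of the ratio in the IFNγ libraries did not overlap that of any other group of the same line.

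**Figure D3:**
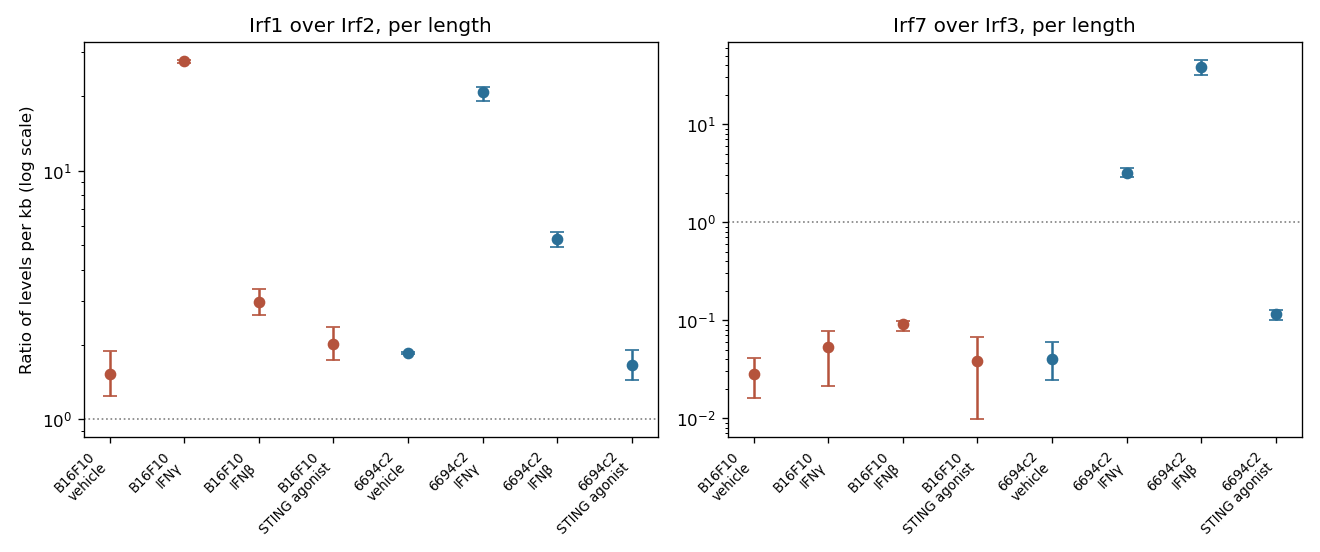
Ratios of levels per kb, on a log axis, for Irf1 over Irf2 (left) and Irf7 over Irf3 (right) in the 8 groups; points are means of 3 libraries and bars run from the lowest to the highest library. Irf1 over Irf2 peaks with IFNγ in both lines, at 27.5 and 20.6, and Irf7 over Irf3 passes 1 only in 6694c2 cells with either interferon, at 3.21 with IFNγ and 38 with IFNβ.

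Irf9 (ENSMUSG00000002325, chr14:55603571-55610030), the DNA-binding subunit of ISGF3, set the lines apart before treatment and converged with IFNβ. With vehicle it measured 43.5, 41.8 and 43.8 CPM in B16F10 cells and 4.96, 4.97 and 5.36 CPM in 6694c2 cells. With IFNβ it measured 110, 103 and 107 CPM in B16F10 and 104, 95.7 and 104 CPM in 6694c2 cells. The ranges of the lines were far apart with vehicle and overlapped with IFNβ. Against vehicle, the log2 fold change was 1.32 ± 0.0653 in B16F10 and 4.35 ± 0.0983 in 6694c2 cells (adjusted p = 2.6e-61 and 2.6e-33), a difference of 3.0 ± 0.113 (adjusted p = 2.9e-23).

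With IFNγ, Irf9 measured 81.1, 76.9 and 78.7 CPM in B16F10 cells and 53.7, 55.6 and 57.7 CPM in 6694c2 cells, below the IFNβ libraries in both lines. The log2 fold changes were 0.87 and 3.47, and the effect was larger in 6694c2 cells by 2.58 ± 0.115 (adjusted p = 4.6e-20). With STING agonist it measured 52.1, 57.3 and 60.5 CPM in B16F10 cells, all above vehicle (0.39 ± 0.0675, adjusted p = 2.4e-06). In 6694c2 cells it measured 5.44, 6.27 and 5.17 CPM, overlapping vehicle (0.15, 95% interval -0.09 to 0.38). The effect of the agonist was not called different between the lines (-0.25, interval -0.51 to 0.01, adjusted p = 0.43). The exons of Irf9 share 123 bases with Rnf31 on the same strand, and Rnf31 moved too. In 6694c2 cells Rnf31 averaged 19.1 CPM with vehicle, 50.9 CPM with IFNγ and 64.0 CPM with IFNβ, a smaller fold change than that of Irf9 with either interferon. In B16F10 cells Rnf31 averaged 18.1 CPM with vehicle, 51.0 CPM with IFNγ and 35.0 CPM with IFNβ, and its fold change with IFNγ was larger than that of Irf9.

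Irf7 (ENSMUSG00000025498, chr7:141262706-141266481), the interferon-inducible amplifier of type I interferon, gave the widest gap between the lines. In 6694c2 cells it measured 1.46, 0.781 and 0.610 CPM with vehicle (10 to 25 reads), 79.7, 71.3 and 79.7 CPM with IFNγ, and 929, 927 and 1029 CPM with IFNβ. In B16F10 cells it measured 0.574, 0.882 and 1.29 CPM with vehicle, 1.69, 2.16 and 0.616 CPM with IFNγ, and 2.66, 2.30 and 2.87 CPM with IFNβ. The lines overlapped with vehicle and were far apart with either interferon.

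In 6694c2 cells the log2 fold change of Irf7 was 6.34 ± 0.139 with IFNγ (adjusted p = 9.2e-34) and 10.01 ± 0.134 with IFNβ (adjusted p = 5.9e-41), the third-highest fold change of the 21138 genes tested. In B16F10 cells it was 1.49 ± 0.294 with IFNβ (adjusted p = 7.5e-06) and 0.67 ± 0.314 with IFNγ, which was not called (adjusted p = 0.12). The last passed the threshold without IFNγ replicate 3 (1.03, adjusted p = 0.0091) or without vehicle replicate 3 (1.0, adjusted p = 0.031). The effect was larger in 6694c2 cells by 8.50 ± 0.523 for IFNβ (adjusted p = 4.3e-16) and by 5.67 ± 0.486 for IFNγ (adjusted p = 1.2e-11). With vehicle no difference was called between the lines (0.02, 95% interval -0.76 to 0.81).

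The Irf7 level in B16F10 IFNβ libraries was 0.239 to 0.298% of the mean 6694c2 IFNβ level. In the same B16F10 libraries the ductal epithelial markers summed to 0.114 to 0.385% of their 6694c2 vehicle sum, a range that held the Irf7 share. That sum was mostly Krt8 and Krt19. Taken as the median over the 7 markers, the share was 0.307 to 0.671%, above that of Irf7. That median counts Epcam, Ehf and Cldn4, which were low in the 6694c2 vehicle reference (3.52, 0.404 and 0.258 CPM). In B16F10 cells with IFNβ these averaged 0.944, 0.235 and 0.386 CPM, so their shares were far larger and rest on low levels. The part of such transcripts in the B16F10 Irf7 rise was not tested. With IFNγ the Irf7 share was 0.801 to 2.81%, above the summed marker share of 0.110 to 0.258% and the median share of 0.287 to 0.379%. Exons of Irf7 share 45 bases with Phrf1, which lay between 64.3 and 74.3 CPM on average in every group.

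With STING agonist, Irf7 measured 3.27, 3.14 and 2.43 CPM in 6694c2 cells, all above vehicle (1.62 ± 0.206, adjusted p = 2.9e-06). In B16F10 cells it measured 0.299, 1.82 and 1.17 CPM, across the vehicle range (0.29, 95% interval -0.36 to 0.94). A difference between the lines was not called (1.30 ± 0.496, adjusted p = 0.22), though it passed with no minimum on reads (adjusted p = 0.011). The 6694c2 agonist libraries held 0.253 to 0.340% of the mean Irf7 level of the IFNβ libraries of that line, and the vehicle libraries 0.0634 to 0.152%. For Ifit3 the same shares were 0.347 to 0.360% and 0.0931 to 0.251%, and for Ifit1 0.318 to 0.421% and 0.215 to 0.261%. Of the 8 ISGF3, IRF3 and IRF7 targets at 5 CPM or more with IFNβ in that line, the mean share was higher with the agonist than with vehicle for 6, by 0.0835 to 0.171 percentage points. It was lower for Ifit2 (2.37 against 2.60%) and Rsad2 (0.573 against 0.708%). Whether reads of the IFNβ libraries had a part in these levels was not tested.

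Irf3 (ENSMUSG00000003184, chr7:44997648-45002848), the constitutive factor directly below STING and TBK1, varied least. Its B16F10 levels were 32.3, 29.4 and 28.6 CPM with vehicle and 24.7, 25.5 and 26.6 CPM with IFNγ. Those groups did not overlap, and the log2 difference was -0.24 ± 0.0829 (adjusted p = 0.024), a call lost without IFNγ replicate 1 (-0.20, adjusted p = 0.14), IFNγ replicate 2 (adjusted p = 0.056) or vehicle replicate 1 (-0.19, adjusted p = 0.16), or with no minimum on reads (adjusted p = 0.062). IFNβ and STING agonist gave -0.18 and -0.16, not called. In 6694c2 cells every treated group overlapped vehicle (22, 20.9 and 22.6 CPM), with log2 differences of 0.03 (95% interval -0.17 to 0.23), 0.14 (interval -0.06 to 0.33) and 0.10 (interval -0.10 to 0.30) for IFNγ, IFNβ and STING agonist. Per kilobase, Irf7 stood at 0.0397 ± 0.0186 times Irf3 in 6694c2 vehicle cells and at 38 ± 6.55 times with IFNβ. In B16F10 cells with IFNβ this ratio was 0.0903 ± 0.0109.

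Irf8 (ENSMUSG00000041515, chr8:120736358-120756694), the lineage factor of myeloid and dendritic cells, responded to IFNγ in 6694c2 cells. It measured 2.28, 1.23 and 2.19 CPM with vehicle and 30.3, 32.9 and 36 CPM with IFNγ. With IFNβ it measured 2.03, 2.40 and 1.95 CPM, and with STING agonist 1.77, 2.05 and 1.65 CPM. The IFNγ libraries stood alone, and the other groups overlapped vehicle. The log2 fold change was 4.14 ± 0.156 with IFNγ (adjusted p = 5.9e-25) and 0.20 with IFNβ (95% interval -0.21 to 0.60).

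In B16F10 cells Irf8 ranged from 0.574 to 1.97 CPM over all 12 libraries and was called with no treatment. Its IFNγ log2 difference there was 0.50 (95% interval -0.07 to 1.08), and the effect was larger in 6694c2 cells by 3.64 ± 0.334 (adjusted p = 7.6e-11). The leukocyte markers summed to 11.3 to 16.8 CPM in the 6694c2 IFNγ libraries and to 18.6 to 23.7 CPM with vehicle. They were present at 5.50 to 18.9 CPM in B16F10 libraries, including Ms4a1 of B cells. Trac, also in the sum, averaged 3.24 to 5.26 CPM over the 6694c2 groups and 0.0122 to 0.0659 CPM over the B16F10 groups. Cd3e had 0 reads in the 6694c2 libraries. B16F10 vehicle replicate 1 had the lowest sum and the lowest Irf8 and Irf4 of its group, as did 6694c2 vehicle replicate 2. In B16F10 STING agonist replicate 2 the lowest sum (12.5 CPM) stood with the highest Irf8 and Irf4 of the group. In B16F10 IFNγ replicate 1 the lowest sum (13.3 CPM) stood with the highest Irf4 (0.586 CPM). The part of leukocyte transcripts in the Irf8 and Irf4 levels of either line was not tested.

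Irf5 (ENSMUSG00000029771, chr6:29526625-29541871), which acts below Toll-like receptors, rose with both interferons in B16F10 cells and stayed under 2 CPM in 6694c2 cells. Levels in B16F10 cells were 1.39, 0.802 and 1.53 CPM with vehicle, 8.13, 10.2 and 7.17 CPM with IFNγ, and 10.8, 9.74 and 8.73 CPM with IFNβ. The interferon groups lay above vehicle and overlapped each other. The log2 fold changes were 2.77 ± 0.184 and 2.98 ± 0.181 (adjusted p = 3.2e-39 and 3.2e-45), and STING agonist gave 0.26, not called. In 6694c2 cells Irf5 measured 0.292, 0.279 and 0.549 CPM with vehicle (5 to 9 reads), 0.834, 0.674 and 0.238 CPM with IFNγ, and 0.865, 1.76 and 1.88 CPM with IFNβ.

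In 6694c2 cells the IFNβ rise of Irf5 was called (2.03 ± 0.467, adjusted p = 0.0011) and the IFNγ difference was not (0.57, 95% interval -0.49 to 1.62). The IFNγ effect differed between the lines by -2.27 ± 0.621 (adjusted p = 0.013), a call lost without 6694c2 IFNγ replicate 3 (-1.75, adjusted p = 0.063) or 6694c2 vehicle replicate 3 (-1.90, adjusted p = 0.14). The IFNβ effect was not called different (-0.99, interval -2.08 to 0.09). Exons of Irf5 share 411 bases with Tnpo3, which lay between 194 and 248 CPM on average, with a lower mean with both interferons than with vehicle in both lines.

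Irf4 (ENSMUSG00000021356, chr13:30749226-30766927), known from lymphocytes and melanocytes, was close to the limit of detection, with 1 to 21 reads per library. Levels in B16F10 cells were 0.0478, 0.0802 and 0.196 CPM with vehicle and 0.484, 0.613 and 0.606 CPM with IFNβ. Those groups did not overlap, and the log2 fold change was 2.31 ± 0.672 (adjusted p = 0.0041) on 1 to 5 against 12 to 16 reads. IFNγ gave 1.74, not called (adjusted p = 0.058), which passed without IFNγ replicate 3 (adjusted p = 0.034) or vehicle replicate 3 (2.46, adjusted p = 0.034), or with the filterByExpr minimum (adjusted p = 0.031). STING agonist gave 1.47, not called (adjusted p = 0.37), with each library above vehicle. In 6694c2 cells the 4 groups overlapped, from 0.112 to 0.945 CPM. Between vehicle groups the difference (6694c2 less B16F10) was 1.61, not called (adjusted p = 0.066). It passed without B16F10 vehicle replicate 3 (adjusted p = 0.039) or 6694c2 vehicle replicate 2 (adjusted p = 0.023). The IFNβ effect differed by -2.33, not called (adjusted p = 0.11), and passed without 6694c2 vehicle replicate 2 (adjusted p = 0.0497).

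Taking the 8 transcripts per kilobase, the family's summed level and make-up changed with treatment. In B16F10 cells it summed to 22.7 ± 0.208 CPM per kb with vehicle, 192 ± 4.88 with IFNγ, 45.1 ± 1.18 with IFNβ and 25.8 ± 1.15 with STING agonist. In 6694c2 cells the sums were 16.6 ± 0.854, 193 ± 4.79, 313 ± 15.5 and 17.6 ± 0.447 in the same order (SD, n = 3). The IFNγ sums of the lines overlapped, and IFNβ gave the highest sum in 6694c2 cells only.

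With IFNγ, Irf1 made up 83.5 ± 0.149% of the sum in B16F10 and 74.6 ± 0.853% in 6694c2 cells. With IFNβ, Irf7 made up 81.4 ± 0.900% in 6694c2 cells, while in B16F10 cells Irf9 led with 44.0 ± 1.21%, followed by Irf1 with 21.9 ± 1.80% and Irf3 with 17 ± 0.885%, and Irf7 made up 1.53 ± 0.131%. With vehicle, Irf3 and Irf9 led in B16F10 cells at 38.5 ± 2.16% and 35.2 ± 0.777%, and Irf3 and Irf1 in 6694c2 cells at 38.2 ± 2.14% and 33.6 ± 1.72%. STING agonist left that order as it was in 6694c2 cells, and put Irf9 (40.7%) before Irf3 (30.4%) in B16F10 cells.

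**Figure D4:**
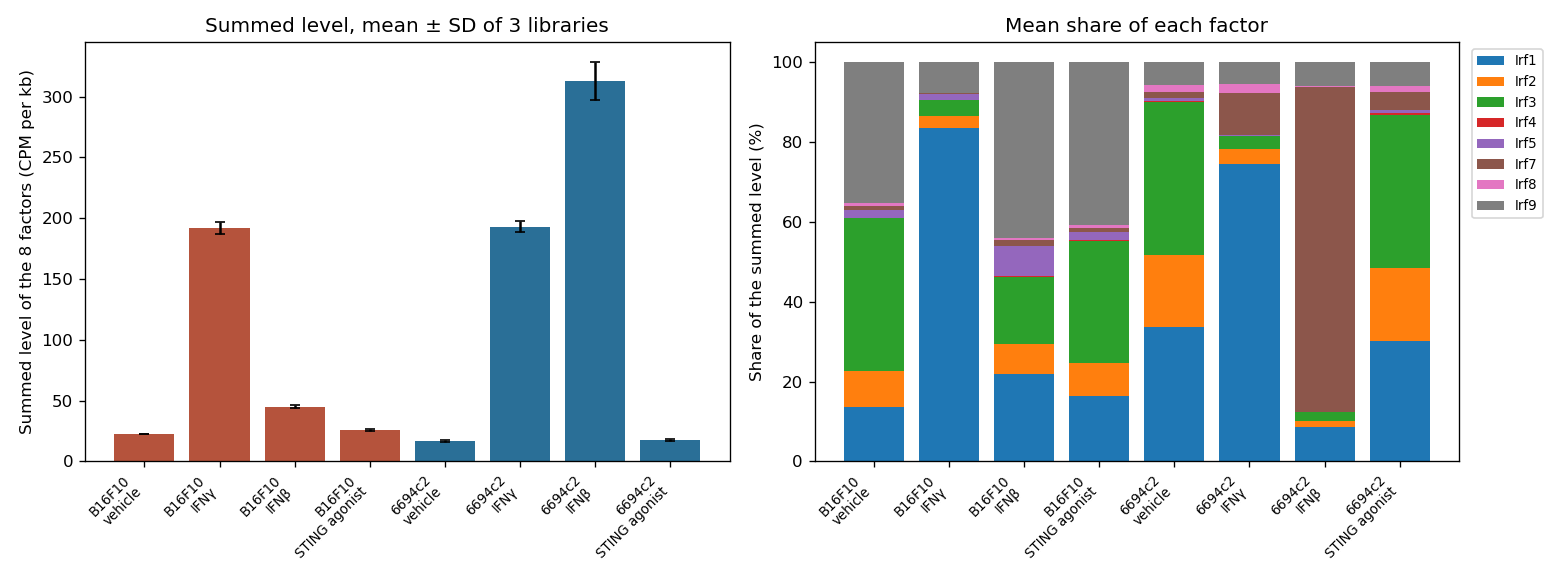
Left, the summed level of the 8 factors in CPM per kb, as mean and SD of 3 libraries, in the 8 groups. Right, the mean share of each factor in that sum, in percent. Irf1 takes 83.5 and 74.6% with IFNγ in the 2 lines, and Irf7 takes 81.4% in 6694c2 cells with IFNβ against 1.53% in B16F10 cells.

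Before treatment, 3 members were higher in 6694c2 than in B16F10 cells (Irf1, Irf2, Irf8) and 3 lower (Irf3, Irf5, Irf9), where 28.7% of all genes were higher and 29.3% lower, so the count is near the background. The log2 differences were 0.85 for Irf1, 0.57 for Irf2, -0.46 for Irf3, -1.72 for Irf5 and -3.08 ± 0.0912 for Irf9 (adjusted p = 7.3e-29). For Irf8 it was 0.62 (adjusted p = 0.043), a call lost without B16F10 vehicle replicate 1 (0.27) or 2, or 6694c2 vehicle replicate 1 (0.47) or 3, or with no minimum on reads (adjusted p = 0.053). Between the lines, the effect of IFNγ was larger in 6694c2 cells for 3 members and smaller for 2, against 4.52% and 4.95% of all genes. The effect of IFNβ was larger for 3 and smaller for 0, against 6.16% and 5.9% (51.1% of calls larger, and 35.2% with library totals), and that of STING agonist smaller for Irf1 alone, against 1.56% (0.568% larger).

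Set against each other directly, IFNβ left Irf1 and Irf2 lower than IFNγ in both lines. In B16F10 cells 2 members were lower and 2 higher, against 7.85% and 6.65% of all genes (45.9% of calls higher, and 64.7% with library totals in place of TMM factors), with Irf1 at -4.01 ± 0.0641, Irf2 at -0.79 ± 0.0821, Irf9 at 0.45 ± 0.0627 and Irf7 at 0.82 ± 0.276. The call for Irf7 (adjusted p = 0.025) was lost with DESeq2 (adjusted p = 0.20), with the filterByExpr minimum (adjusted p = 0.12), with the robust fit (adjusted p = 0.097) and without IFNγ replicate 3 (0.46) or IFNβ replicate 3. In 6694c2 cells 3 were lower and 3 higher, against 6.57% and 7.3%, with Irf1 at -2.42 ± 0.0703, Irf2 at -0.46 ± 0.0810, Irf8 at -3.95 ± 0.143, Irf7 at 3.66 ± 0.0841, Irf9 at 0.88 ± 0.0747 and Irf5 at 1.46 ± 0.427. The Irf5 call (adjusted p = 0.014) was lost without IFNβ replicate 2 or 3 or IFNγ replicate 3 (0.99).

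STING agonist fell short of IFNβ for the same 5 members in both lines, Irf1, Irf2, Irf5, Irf7 and Irf9, with none higher. Of all genes, 11% were lower and 8.76% higher in B16F10 cells, and 9.53% lower and 7.95% higher in 6694c2 cells (45.5% of calls higher, and 60% with library totals). The log2 differences ran from -0.66 for Irf2 to -2.73 for Irf5 in B16F10 cells, and from -0.67 for Irf2 to -8.38 for Irf7 in 6694c2 cells. In B16F10 cells the agonist brought Irf9 to 48.8 to 56.6% of its mean IFNβ level and Irf1 to 41.1 to 44.5%, against 39.1 to 41.0% and 26.6 to 36.6% with vehicle. The call for Irf7 in B16F10 cells (-1.20) was lost without STING agonist replicate 1 (-0.81, adjusted p = 0.052).

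The partners of the factors moved as follows. Beside the counts of each list, 12% of all genes were higher and 10.8% lower with IFNγ in B16F10 cells, and 12.7% and 11.2% with IFNβ. In 6694c2 cells the shares were 7.89% and 5.66% with IFNγ, and 10.4% and 7.86% with IFNβ. With STING agonist they were 1.93% and 1.53% in B16F10 cells, and 0.203% and 0.156% in 6694c2 cells. Stat2, a partner of IRF9 in ISGF3, rose with both interferons in both lines, with IFNβ by 4.16 ± 0.0795 in B16F10 and by 4.70 ± 0.117 in 6694c2 cells. With STING agonist it rose in B16F10 cells, by 1.04, and was not called in 6694c2 cells. It was lower in 6694c2 vehicle cells, as Irf9 was.

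Of 7 interferon receptors and kinases, 4 were higher and 1 lower with IFNγ in B16F10 cells, 3 and 1 with IFNβ, and in 6694c2 cells 2 and 1 with IFNγ and 3 and 0 with IFNβ. Ifnar2, a chain of the type I receptor, rose with both interferons in both lines, by 0.36 to 1.08. No member of this list was called with STING agonist in either line.

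Of 13 genes for sensors and adaptors that activate IRF3, IRF5 or IRF7, 9 rose with each interferon in B16F10 and 7 in 6694c2 cells, with none lower. The RNA sensor genes Ddx58 and Ifih1 rose with IFNβ by 2.42 and 2.86 in B16F10 and by 5.66 and 5.62 in 6694c2 cells. Tlr3, for the endosomal receptor of double-stranded RNA, rose with IFNβ by 3.05 and 4.53. Mean levels with IFNβ in B16F10 and 6694c2 cells were 386 and 374 CPM for Ddx58. They were 259 and 89.7 CPM for Ifih1 and 167 and 118 CPM for Tlr3. With vehicle, 9 of the 13 were lower in 6694c2 than in B16F10 cells and 3 higher, against 29.3% and 28.7% of all genes. With STING agonist 3 of 13 rose in B16F10 cells (Ddx58, Ifih1 and Tlr3) and 0 of 13 in 6694c2 cells.

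Of 7 co-regulators, 2 were higher and 0 lower with IFNγ in B16F10 cells, and 1 and 2 with IFNβ. In 6694c2 cells 1 was higher and 0 lower with IFNγ, and 2 and 0 with IFNβ. With STING agonist 1 was higher and 1 lower in B16F10 cells, and 0 were called in 6694c2 cells. Among them Batf2, a partner of IRF1, rose with IFNγ by 7.62 ± 0.162 in B16F10 and 7.25 ± 0.133 in 6694c2 cells. With IFNβ it rose by 3.30 and 3.60. Among 5 genes that restrain the pathway, 4 rose with each interferon in both lines, and in B16F10 cells 1 was lower with each. Socs1 rose by 4.71 and 4.98 with IFNγ and by 2.10 and 2.42 with IFNβ. Usp18 rose with IFNβ by 4.12 in B16F10 and 8.32 in 6694c2 cells. Its mean levels there were 875 and 504 CPM, from 50.5 and 1.63 CPM with vehicle.

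Of 9 textbook targets of IRF1, 8 rose with IFNγ in B16F10 and 9 in 6694c2 cells, with medians of 4.86 and 6.42. Gbp2 rose by 7.81 and 7.64, Tap1 by 5.30 and 7.17. With IFNβ 7 of 9 rose in each line. Directly compared, 8 of 9 were lower with IFNβ than with IFNγ in each line. Of all genes, 7.85% were lower in that comparison in B16F10 and 6.57% in 6694c2 cells. Irf1 was lower too, and its part in the levels of these targets was not tested. Of 10 textbook targets of ISGF3, IRF3 and IRF7, 9 were tested, Ifnb1 being under the read minimum. All 9 rose with both interferons in B16F10 cells, with a median of 4.13 for IFNβ, where Irf7 stayed under 3 CPM. In 6694c2 cells 7 rose with IFNγ and 8 with IFNβ, with medians of 3.64 and 8.27. All 9 were lower in 6694c2 than in B16F10 vehicle cells (median log2 difference -4.55), against 29.3% of all genes. Mean levels with IFNβ in B16F10 and 6694c2 cells were 925 and 962 CPM for Ifit1. They were 1752 and 2037 CPM for Ifit3 and 1919 and 562 CPM for Rsad2. With STING agonist 8 of 9 rose in B16F10 cells, highest for Ccl5 (2.65 ± 0.0888) and then Ifit1 (2.17 ± 0.0572), and 2 of 9 in 6694c2 cells, Ifit3 (0.97 ± 0.153) and Ifit1 (0.62 ± 0.145).

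The genes most like each factor were sought by the Pearson correlation of the response, log2(CPM + 0.5) less the vehicle mean of the line, over the 18 treated libraries and 12387 genes of at least 1 CPM on average. The libraries share lines and treatments, so the values describe shared patterns only. Irf1 was most like Gm4841 (0.997) and Gm5970 (0.991), Irf2 like Etv6 (0.979) and Gm12250 (0.977), and Irf8 like the integrin gene Itgb7 (0.990). Irf7 was most like Slfn10-ps (0.981) and Ifit1bl1 (0.978), Irf9 like Xaf1 (0.990) and Slfn2 (0.987), and Irf5 like Ubap1 (0.970) and Cd47 (0.961). Irf3 reached 0.857 with Ankrd16 and 0.842 with Mbd6, and Irf4 was too low to be placed. Within the family, Irf1 and Irf2 correlated at 0.967 and Irf7 and Irf9 at 0.952, whereas Irf5 and Irf9 stood at -0.006.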

How the data were processed

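Per the labels and methods, the authors trimmed adaptors with cutadapt 1.14, aligned paired-end reads with STAR 2.7.9a, used Rsubread to assign reads to genes, and the deposited values are raw counts, 1 table per library. Build, annotation, strandedness and the handling of multi-mapping reads were not given in the sources used here. Of 49056 genes also in GENCODE M21 (GRCm38), 91.4% have the same span and strand, so coordinates are on GRCm38. The 6 single-cell samples were not analysed here.

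Genes with at least 10 reads over the 24 libraries were kept. Counts were fitted with edgeR 4.0.16 (TMM, quasi-likelihood test, Benjamini-Hochberg adjustment over all 21138 genes, threshold 0.05) in R 4.3.3, on the 12 libraries of a line, or on all 24 for differences between the lines. Standard errors follow from the fold change and F statistic. The fit was tested on simulated data. Alternatives were DESeq2 1.42.0, RLE factors, library totals, other filters, a robust fit, a replicate block and each library left out. An exact test of 3 against 3 libraries cannot go below p = 0.1, so none was used. The members and lists were chosen with earlier results of these data known. Every member called was named in each comparison, and values of members not called were given for some. Of a partner list, up to 4 genes of the smallest p among those called were named. Ifnb1, Ccl5, Ifit2, Rsad2, Ms4a1, Trac, Cd3e and Itgam were added for single statements. One further symbol of the Irf series and some genes of the lists are not reported here. Where Irf exons overlap a neighbour, shared reads cannot be told apart. No protein sequences were used.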

Additional observations from a re-analysis of the deposited data

Results flagged for a closer look

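The response to a treatment differed between the lines, by the test of the difference itself, for 9 combinations of factor and treatment, given as log2 effect in 6694c2 less that in B16F10 cells. With IFNγ these were Irf7 (5.67, adjusted p = 1.2e-11), Irf8 (3.64, adjusted p = 7.6e-11), Irf9 (2.58, adjusted p = 4.6e-20), Irf1 (-1.0, adjusted p = 1.8e-08) and Irf5 (-2.27, adjusted p = 0.013). With IFNβ they were Irf7 (8.50, adjusted p = 4.3e-16), Irf9 (3.0, adjusted p = 2.9e-23) and Irf1 (0.57, adjusted p = 0.00057). With STING agonist it was Irf1 (-0.53, adjusted p = 0.013). For Irf9 the vehicle level differed in the opposite direction to the effect (-3.08), and for Irf7 no vehicle difference was called (0.02).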

How the results depend on the processing

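Over 1680 values of the 8 factors under the alternatives, 1646 kept their side of the threshold, 25 lost a call and 9 gained one. The sign changed in 52 of them, over 21 combinations of factor and comparison, and 0 of these 52 were called under either setting. The changed values belonged to 12 of 112 combinations of factor and comparison, and 25 of them came from leaving out 1 library. Irf1, Irf7 and Irf9 against vehicle with IFNβ, and Irf8 with IFNγ in 6694c2 cells, kept their calls throughout. The number of members whose STING agonist effect differed between the lines was 1, went to 2 with no minimum on reads, where Irf7 was added, and ran from 0 to 1 with single libraries left out. For the Irf8 difference between vehicle groups, library totals alone gave 0.44 (adjusted p = 0.16). Numbers in the labels did not pair the libraries, with 3 of 18 same-number correlations over 0.1 in each line. The replicate block changed no member count but that between vehicle groups, where the Irf8 difference became 0.71 (adjusted p = 0.063), and the genes called with STING agonist in 6694c2 cells went from 76 to 126 of all tested, against 102 with DESeq2, 138 with no minimum and 42 to 105 with single libraries left out. STING agonist effects called different between the lines went from 449 to 743 of all genes with DESeq2. With library totals in place of TMM factors the median of all genes shifted by -0.18 between vehicle groups. Calls for Irf4, and for Irf5, Irf7 and Irf8 near or under 2 CPM, rest on few reads.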
